A study of Mus musculus with 12 samples.

Results

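miR-762, miR-705, miR-3960 and miR-2861 are 4 of the 1096 mouse miRNA names on an array that was hybridized with RNA from quadriceps muscle of Cfl2-KO and wild-type mice. They were selected by name. The first 3 had been picked as bright miRNAs with higher values in Cfl2-KO muscle, and miR-2861 was added because its gene lies beside that of miR-3960. Their difference between genotypes is therefore given as a description without a test, and the covariation of the 4 between mice of one genotype, which was not used to pick them, was tested.

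Quadriceps was taken at postnatal day 7 from 6 WT mice (genotype wildtype) and 6 KO mice (genotype cofilin-2 null), all of strain C57Bl/6, and each mouse gave 1 sample. Cofilin-2 is the cofilin of skeletal muscle, a protein that remodels actin in the thin filament, and mice without it are weak soon after birth and die at about the age studied, so that the KO samples came from severely affected muscle. The methods describe littermate pairs, but neither they nor the labels say that a sample number marks a pair. All WT samples carried the dye Cy5 and all KO samples Cy3, so a difference between genotypes and a difference between dyes cannot be told apart. It is not clear whether a WT and a KO sample shared an array. The values are normalized intensities on a linear scale, a measure of the brightness of a miRNA's probe. Levels of different miRNAs were not read as relative amounts, because each probe binds with its own strength. Sums over marker miRNAs and the ratio of miR-2861 to miR-3960 are of probe signals, and the brightest probes weigh most in a sum. The samples were whole muscle, in which fewer cells of a type and less RNA per cell cannot be told apart.

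A miRNA is cut from a hairpin in a longer transcript and guides Argonaute proteins to messenger RNAs, mainly by pairing of its bases 2 to 8, the seed. miR-3960 and miR-2861 come from one short stretch of DNA and are known from osteoblasts, where the transcription factor Runx2 acts on their shared transcript and where they repress Hoxa2 and Hdac5. miR-705 has been studied in bone marrow stromal cells as a repressor of Hoxa10, and miR-762 in calcifying vascular smooth muscle cells. They are not among the miRNAs known as muscle-specific, such as miR-1, miR-133a and miR-206.

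The mature sequences are shown because their base composition is the most visible thing that these miRNAs have in common. They were taken from RefSeq on GRCm38.p6, are written 5′ to 3′ and have the seed in capitals. miR-3960 is listed there by its hairpin, which is given whole.
miR-762, chr7:127708534-127708555, plus strand: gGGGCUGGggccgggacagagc
miR-705, chr6:85336341-85336360, minus strand: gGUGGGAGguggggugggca
miR-2861, chr2:32712819-32712837, minus strand: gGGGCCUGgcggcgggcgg
Mir3960 hairpin, chr2:32712900-32712972, minus strand: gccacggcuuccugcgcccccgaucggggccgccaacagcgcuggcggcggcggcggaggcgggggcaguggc

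G made up 59.1% of miR-762, 70% of miR-705 and 68.4% of miR-2861, against a median of 28.9% over the 94 tested miRNAs that matched a RefSeq sequence by exact name. The seeds of the 3 differed from each other. Of the other mature miRNAs in the RefSeq table, miR-6940-5p and miR-7648-3p shared the seed of miR-762, miR-7008-5p, miR-6922-5p and miR-6993-5p that of miR-705, and miR-3091-3p that of miR-2861. Only miR-3091-3p was on the array under its exact name, and it was near background, at 4 to 10 in WT and 5 to 8 in KO. The longest run of bases that miR-762 and miR-2861 had in common was GGGGCC, which occurred in 0.716% of 1677 other mature sequences. miR-705 shared UGGGG with miR-762 (in 5.19% of the others) and GGGG with miR-2861 (in 11.1%). miR-2861 shared a run of 10 bases, CUGGCGGCGG, with the hairpin of miR-3960, and it was in none of 1678 other mature sequences. With the same hairpin miR-762 shared GGGGCCG (in 0.238% of the others) and miR-705 GGAGG (in 5.07%). A hairpin is longer than a mature miRNA, and the mature part of this one is not marked, so a run may lie outside it. These runs were read on the RNA strand as printed. Whether one of these miRNAs binds the probe of another was not tested.

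The genes of 3 of the 4 lie at the start of a protein-coding gene. Mir762 lies within Bcl7c, a gene of the SWI/SNF chromatin remodelling complex, on the opposite strand and 204 bases after its start. Mir3960 and Mir2861 lie 116 and 23 bases before the start of Cdk9, which encodes the kinase that releases paused RNA polymerase II, on the same strand as Cdk9 and 11 bases apart. Mir705 lies within Rab11fip5, an effector of Rab11 in vesicle traffic. Whether Mir762 and Mir705 are exonic or intronic was not analysed here. The window from 250 bases before to 50 bases after the start of Cdk9 holds both hairpins, in capitals below, Mir3960 at bases 63 to 135 and Mir2861 at bases 147 to 228.
Cdk9 promoter window, chr2:32712735-32713034, GRCm38.p6, minus strand: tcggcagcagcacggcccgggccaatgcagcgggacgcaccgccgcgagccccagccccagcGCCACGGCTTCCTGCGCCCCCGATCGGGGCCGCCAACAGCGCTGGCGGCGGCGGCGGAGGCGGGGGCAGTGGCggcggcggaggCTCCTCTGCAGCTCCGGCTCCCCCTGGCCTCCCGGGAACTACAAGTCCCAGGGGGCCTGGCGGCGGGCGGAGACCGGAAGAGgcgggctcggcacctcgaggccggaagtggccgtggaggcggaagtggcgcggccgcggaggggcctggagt

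G and C made up 78.3% of this window, more than in 98.2% of the 32851 promoter windows of the same length, and 78.7% of the window of Bcl7c, more than in 98.4%. The median window had 52.7%. The dinucleotide CG occurred 39 times in the window of Cdk9 and 40 times in that of Bcl7c, against a median of 7. The messenger RNAs of Cdk9, Bcl7c and Rab11fip5 are not measured on a miRNA array.

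Muscle markers were bright in both genotypes. The summed intensity of miR-1, miR-133a, miR-133b, miR-206, miR-208b and miR-499 was 81016 to 93263 in WT and 78886 to 105688 in KO. Of these 6 markers 4 were bright enough to be tested and 0 passed the unadjusted threshold, whereas miR-208b and miR-499 stayed at 30 or below in every mouse. Markers of white blood cells were near background, summing to 31 to 62 in WT and 33 to 63 in KO over 4 miRNAs, and those of red cells summed to 49 to 420 and 18 to 318 over 2. Of the red cell pair, miR-144 stayed at 6 or below in every mouse. The smooth muscle pair miR-143 and miR-145 summed to 3555 to 4909 in WT and 3241 to 6241 in KO. The cartilage pair miR-140 and miR-140* summed to 274 to 2244 and 132 to 1732, with miR-140 at 16 or below. The endothelial pair miR-126-3p and miR-126-5p was lower in KO, at 765 to 2709 against 2233 to 4745 in WT. miR-126-3p made up nearly all of this sum, at 760 to 2705 in KO and 2230 to 4741 in WT. Of the 2 only miR-126-3p was tested, and it passed the unadjusted threshold and not the adjusted one. No marker was at 0 in all mice. The part of other cell types in the results below was not tested.

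miR-762 (mmu-miR-762 on the array) was the member with the widest separation. In WT its lowest, median and highest intensities were 611, 1036 and 2039, and in KO they were 2120, 5526.5 and 6497. All 6 KO mice lay above every WT mouse, but KO4, at 2120, was only just above WT5, at 2039, and the other KO mice were at 4553 or more. It averaged 1152 ± 582 (SD, n = 6) over the WT mice and 5097 ± 1640 (SD, n = 6) over the KO mice. The difference in mean log2 intensity, KO minus WT, here called the log2 change, was 2.21 with a standard error of 0.365. Of the 370 miRNAs whose intensity averaged 32 or more over the 12 samples, none rose further. The authors also measured miR-762 by quantitative PCR and report that it went the same way without reaching statistical significance.

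miR-705 (mmu-miR-705) had lowest, median and highest intensities of 1128, 1744 and 2786 in WT and of 2795, 3253 and 3927 in KO. Every KO mouse was above every WT mouse, but WT4, at 2786, and KO6, at 2795, lay next to each other. The averages were 1840 ± 643 (SD, n = 6) and 3329 ± 477 (SD, n = 6), which gave a log2 change of 0.92 with a standard error of 0.240 and rank 25 among the rises. The KO mice were close together: the highest was 1.41 times the lowest, against 2.47 times in WT.

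miR-3960 (mmu-miR-3960) had lowest, median and highest intensities of 6724, 9734.5 and 11167 in WT and of 11236, 15152.5 and 18056 in KO. Again no KO mouse was within the WT range, and again KO4 was the lowest of the KO mice, at 11236, beside WT5 at 11167. The averages were 9461 ± 1637 (SD, n = 6) and 15248 ± 2569 (SD, n = 6), and the log2 change was 0.69 with a standard error of 0.194. Its coefficient of variation was 17.3% in WT, the lowest of the 4, and 16.9% in KO, where that of miR-705 was lower, at 14.3%.

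miR-2861 (mmu-miR-2861) had lowest, median and highest intensities of 2476, 3312.5 and 4224 in WT and of 2700, 6523.5 and 11281 in KO. It was the only one of the 4 whose groups overlapped: KO5, at 2700, was below 5 of the WT mice, KO4, at 4087, was within the WT range, and 4 KO mice lay above all WT mice. The averages were 3364 ± 649 (SD, n = 6) and 6384 ± 2966 (SD, n = 6), and the log2 change was 0.81 with a standard error of 0.307. Its coefficient of variation was 19.3% in WT and 46.5% in KO. Without KO1, the highest KO mouse, the log2 change was 0.62, and without KO5, the lowest, it was 1.03.

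**Figure D1:**
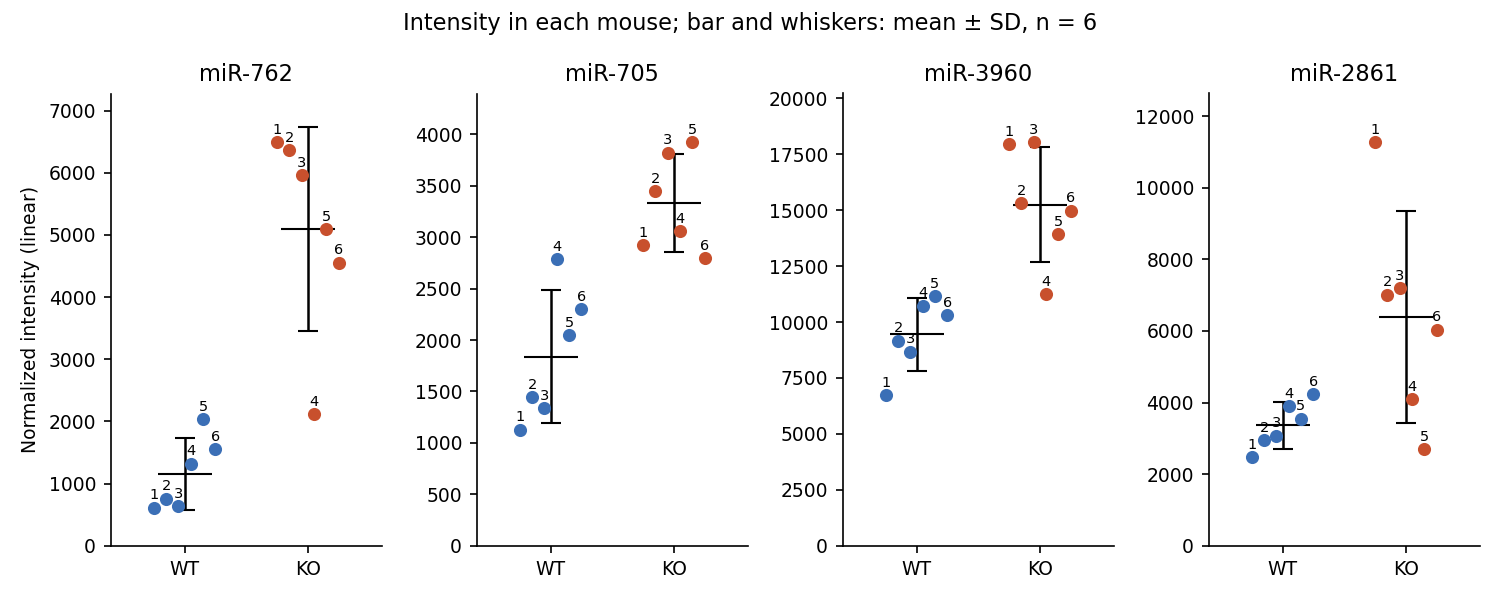
Normalized intensity (linear axis from 0) of miR-762, miR-705, miR-3960 and miR-2861 in 6 WT and 6 KO mice; points are mice with their numbers, bars and whiskers are the mean ± SD. KO4 lies next to the WT mice for miR-762 and miR-3960, and KO5 lies within the WT range for miR-2861.

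Of the 370 miRNAs tested, 6, or 1.62%, had every KO mouse above every WT mouse. These were miR-762, miR-705, miR-3960, miR-2137, miR-376b and miR-211*. Because 3 of them had been picked for this difference, nothing is read from the count. In the fit over all miRNAs, 1.08% were called higher and 0.27% lower in KO at an adjusted p under 0.05, and 9.73% were higher and 9.73% lower at an unadjusted p under 0.05. The median log2 change over all miRNAs tested was -0.08. With each mouse left out in turn, the log2 change ran from 2.06 to 2.45 for miR-762, from 0.79 to 1.05 for miR-705, from 0.60 to 0.77 for miR-3960 and from 0.62 to 1.03 for miR-2861.

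The 4 miRNAs had the same low and high mice in the WT group. For each of them the same 3 mice, WT1, WT2 and WT3, had the 3 lowest intensities, and WT4, WT5 and WT6 the 3 highest. miR-762 was at 611, 754 and 636 in the former and at 1318, 2039 and 1551 in the latter. miR-705 was at 1128, 1442 and 1335 and at 2786, 2046 and 2301. For miR-3960 the values were 6724, 9169 and 8681 and then 10727, 11167 and 10300, and for miR-2861 they were 2476, 2954 and 3076 and then 3907, 3549 and 4224. Of all miRNAs tested, 11.4% had this same split, with WT1, WT2 and WT3 lowest, and 9.73% had the reverse, with WT4, WT5 and WT6 lowest. The labels name no batch. The median deviation of each of these mice from the WT mean over all miRNAs tested was between -0.02 and 0.04 on the log2 scale. The values were already normalized, by a method that is not named, so this median cannot show whether there was a batch. Endothelial miR-126-3p had the reverse split, at 4012, 4387 and 4741 in WT1, WT2 and WT3 and at 2550, 3489 and 2230 in WT4, WT5 and WT6. The summed smooth muscle markers were 4909, 4810 and 4622 in the former mice and 3555, 3617 and 4531 in the latter, also the reverse split. Their r with the 4 miRNAs in WT was between -0.79 and -0.61 (two-sided exact permutation test, p from 0.0736 to 0.224, adjusted p from 0.444 to 0.643), with rho between -0.89 and -0.77 (exact permutation p from 0.0333 to 0.103, adjusted p from 0.320 to 0.448), and r was between -0.91 and -0.71 without WT4 and WT5. The endothelial sum gave r between -0.85 and -0.56 (exact permutation p from 0.0375 to 0.246, adjusted p from 0.444 to 0.653) and rho between -0.77 and -0.60 (exact permutation p from 0.103 to 0.242, adjusted p from 0.448 to 0.580), and r between -0.83 and -0.35 without WT4 and WT6. White blood cell markers, near background at 31 to 62, went the other way, with r between 0.55 and 0.73 (exact permutation p from 0.103 to 0.268, adjusted p from 0.462 to 0.653) and rho between 0.43 and 0.83 (exact permutation p from 0.0583 to 0.419, adjusted p from 0.400 to 0.723), and r between 0.08 and 0.55 without WT1 and WT3. Of 48 such relations 0 passed the adjusted threshold. The 5 that passed the unadjusted one were the endothelial sum with miR-705 and miR-2861 in WT, and in KO the muscle sum with miR-762 and miR-3960 and the cartilage sum with miR-705 (r = -0.84, exact permutation p = 0.0472, adjusted p = 0.444). The part of these cell types in the values of the 4 miRNAs was not tested.

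Pearson's r of the log2 intensities over the 6 WT mice was between 0.82 and 0.93 for all 6 pairs. It was 0.93 for miR-705 and miR-2861 (two-sided exact permutation test, p = 0.0167, adjusted p = 0.0600). For the neighbours miR-3960 and miR-2861 it was 0.88 (exact permutation p = 0.0208, adjusted p = 0.0600), for miR-705 and miR-3960 0.87 (exact permutation p = 0.0250, adjusted p = 0.0600), and for miR-762 and miR-3960 0.86 (exact permutation p = 0.0194, adjusted p = 0.0600). miR-762 with miR-705 and with miR-2861 gave 0.84 and 0.82, with exact permutation p = 0.0778 and 0.0611 and adjusted p = 0.131 and 0.122. Adjustment was by the Benjamini-Hochberg method over 12 relations, 6 pairs in each genotype, and none passed 0.05. After each sample was centred on its median, 5 of the 12 passed, and the same number did so after centring on the miRNAs with under 50% G. Spearman's rho in WT was between 0.71 and 0.94, with exact permutation p from 0.0167 to 0.136 and adjusted p from 0.133 to 0.181. Leaving out the 2 mice farthest from the median of the first miRNA gave r between 0.88 and 0.97 over the 4 that were left. No correlation was computed within the 2 sets of 3 mice, which were seen in these same values, and how far r rests on the difference between the sets was not tested.

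**Figure D2:**
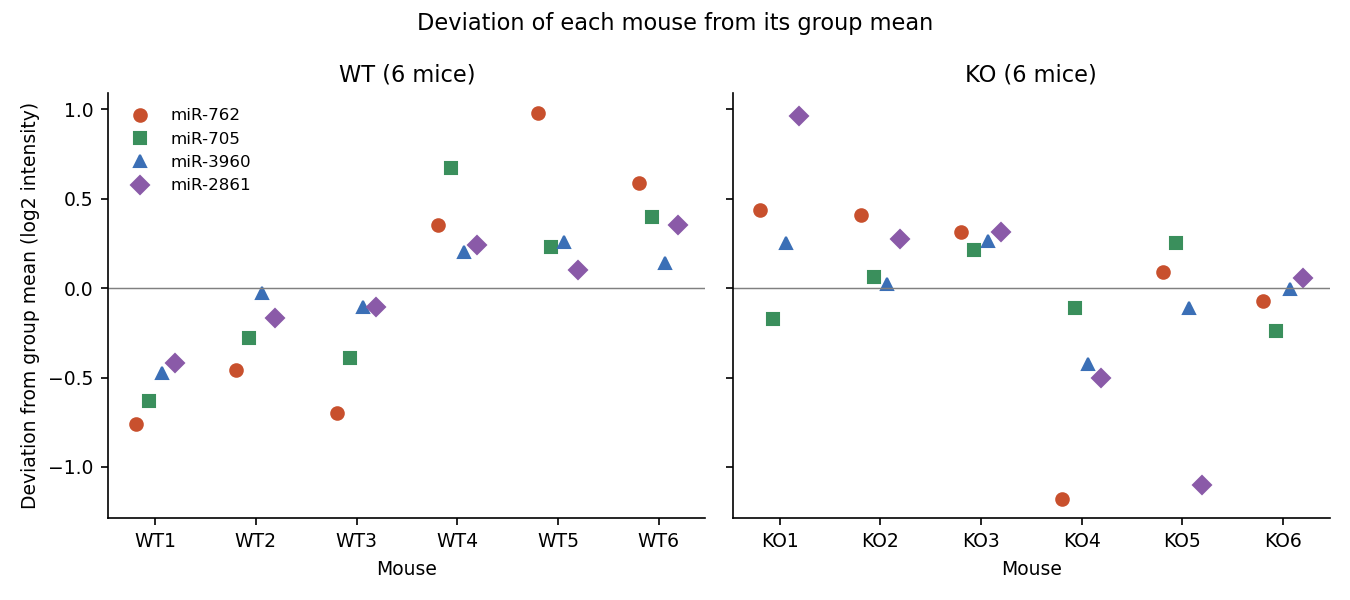
Deviation of each mouse from the mean of its genotype (log2 intensity) for the 4 miRNAs, in WT (left) and KO (right). All 4 points lie below 0 in WT1, WT2 and WT3 and above 0 in WT4, WT5 and WT6; in KO4 miR-762 is lowest and in KO5 miR-2861 is lowest.

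Within the KO group the 4 miRNAs did not share one order of mice. miR-762 and miR-3960 gave r = 0.89 (two-sided exact permutation test, p = 0.0222, adjusted p = 0.0600) and rho = 0.77 (exact permutation p = 0.103, adjusted p = 0.154). This rested in part on KO4, at 2120 and 11236, and r was 0.69 over the 4 mice left after KO4 and KO6 were taken out. The neighbours miR-3960 and miR-2861 gave r = 0.73 (exact permutation p = 0.0875, adjusted p = 0.131) and rho = 0.89 (exact permutation p = 0.0333, adjusted p = 0.133), and r was 0.92 without KO3 and KO4. miR-762 and miR-2861 gave r = 0.51 (exact permutation p = 0.322, adjusted p = 0.430) and rho = 0.77 (exact permutation p = 0.103, adjusted p = 0.154), and r was 0.96 without KO4 and KO6.

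No relation of miR-705 with another member passed the unadjusted threshold in KO. Its r was 0.29 with miR-762, 0.13 with miR-3960 and -0.43 with miR-2861, with exact permutation p = 0.694, 0.803 and 0.399 and adjusted p = 0.758, 0.803 and 0.478, and r was -0.78, -0.11 and -0.08 over the 4 mice left without the 2 farthest. Spearman's rho was 0.09, 0.03 and -0.31, with exact permutation p = 0.919, 1 and 0.564 and adjusted p = 1, 1 and 0.677. KO5 had the highest miR-705, at 3927, and the lowest miR-2861, at 2700. KO1 had the highest miR-2861, at 11281, but for miR-705, at 2924, only KO6 was lower. Whether any r differed between WT and KO was not tested.

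**Figure D3:**
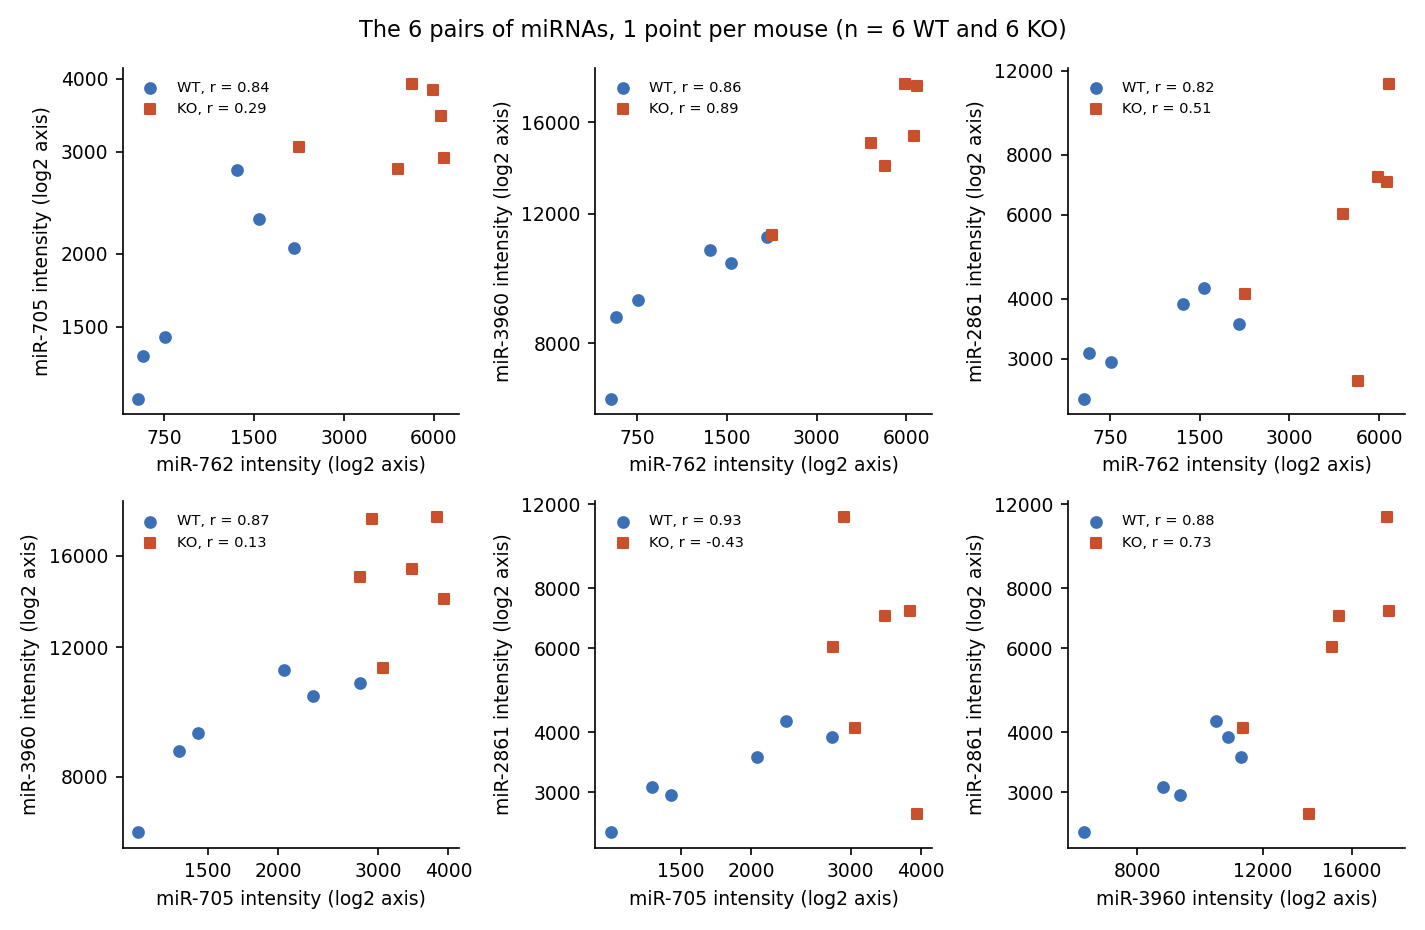
The 6 pairs of the 4 miRNAs, each axis the normalized intensity on a log2 axis, with 1 point per mouse (circles WT, squares KO) and Pearson's r of the log2 intensities within each genotype, n = 6. The WT points rise together in all 6 panels, with r of 0.82 to 0.93, and the KO values of r run from -0.43 to 0.89.

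To use all 12 mice, the deviations of each mouse from the mean of its genotype were correlated, as a description. r was 0.87 (jackknife standard error 0.0698) for miR-762 and miR-3960 and 0.70 (0.150) for miR-3960 and miR-2861. It was 0.67 (0.155) for miR-762 and miR-705, 0.62 (0.238) for miR-705 and miR-3960 and 0.54 (0.272) for miR-762 and miR-2861. miR-705 and miR-2861 were lowest, at 0.17 (0.372), and their r was 0.47 without KO5 and 0.02 without WT1. The median r over all 68265 pairs of miRNAs tested was -0.02, and 15.8% of these pairs had an r above 0.5. The pair miR-762 and miR-3960 was above 98.5% of all pairs, and the neighbours miR-3960 and miR-2861 were above 93.3%, so the neighbours were not the pair with the highest r. The points share the normalization of their array, and miR-762, miR-705 and miR-2861 share a G-rich composition.

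The balance of the neighbours differed between KO mice. The intensity of miR-2861 divided by that of miR-3960 in the same mouse was 0.318 to 0.410 in WT (median 0.359). In KO it was 0.194 in KO5, 0.364 in KO4, 0.398 in KO3, 0.403 in KO6, 0.458 in KO2 and 0.629 in KO1. On the log2 scale the SD of this ratio was 0.14 in WT and 0.56 in KO, and without KO5 it was 0.31 in KO. The ratio alone does not say which of the 2 signals moved. Within KO the SD of the log2 intensity was 0.72 for miR-2861 and 0.25 for miR-3960. In KO5 miR-2861 deviated from the KO mean by -1.10 and miR-3960 by -0.11, and in KO1 by 0.96 and 0.25. The spread of the ratio in KO was thus mainly that of miR-2861. Over all miRNAs tested, the median SD of the log2 intensity was 0.42 in WT and 0.61 in KO.

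KO4 and KO1 stood apart in other miRNAs as well. The muscle miRNA miR-1a, the brightest signal in KO4, was at 71199 there and at 40290 to 54863 in the other KO mice, while miR-762 and miR-3960 had their lowest KO values in KO4. The other bright muscle markers were not highest in KO4. There miR-133a was at 5882 (5151 to 10659 over the KO mice), miR-133b at 5427 (4180 to 10229) and miR-206 at 23172 (21266 to 29194). miR-206 was highest in KO1, the mouse with the lowest muscle sum. The high muscle sum of KO4, given next, therefore rested on miR-1a. The summed muscle markers were 105688 in KO4, 78886 in KO1, 81376 in KO3, 85725 in KO6, 90991 in KO2 and 91210 in KO5. Over the 6 KO mice their r with miR-3960 was -0.97 (two-sided exact permutation test, p = 0.00833, adjusted p = 0.400 over 48 relations of 6 marker lists with the 4 miRNAs in each genotype), with rho = -0.89 (exact permutation p = 0.0333, adjusted p = 0.320). Without KO1 and KO4 this r was -0.85. With miR-762 it was -0.85 (exact permutation p = 0.0458, adjusted p = 0.444; rho = -0.71, exact permutation p = 0.136, adjusted p = 0.503), and 0.02 without KO1 and KO4, so that it rested on these mice. With miR-2861 it was -0.68 (exact permutation p = 0.128, adjusted p = 0.462; rho = -0.89, exact permutation p = 0.0333, adjusted p = 0.320), and -0.55 without KO1 and KO4. Within WT the r of the muscle sum with the 4 miRNAs lay between -0.20 and 0.24 (exact permutation p from 0.631 to 0.938, adjusted p from 0.917 to 0.979). Summed intensity over the whole array was alike in all samples, at 594311 to 636136. The part of the muscle miRNAs in these values was not tested. KO1 had a mean correlation of 0.848 with the other KO mice over all miRNAs tested, against 0.907 to 0.945 for the rest.

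The miRNAs most like each member, other than the 4 themselves, were found from the same deviations over the 12 mice. For miR-762 they were miR-5126 (r = 0.88), miR-149* (0.82) and the dim miR-669l* (0.73). For miR-3960 they were miR-5126 (r = 0.84), miR-5112 (0.83) and miR-149* (0.79), so that miR-5126 and miR-149* were named for both. miR-2861 was most like miR-5105 (r = 0.87), miR-5130 (0.84) and miR-3077* (0.84), and miR-705 most like miR-1968 (0.79), miR-328* (0.78) and miR-1982* (0.77). No miRNA outside the 4 was named for both of the neighbours, and none of the names of miR-705 was shared with another member.

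miR-5126 was at 10568 to 15863 in WT and at 13044 in KO4 and 19718 to 27786 in the other KO mice, so that it had the same low KO mouse as miR-762. Its r with miR-762 was 0.90 within WT and 0.97 within KO. miR-149* was at 2804 to 7989 in WT and 6232 to 13394 in KO, with KO4 again the lowest. The KO4 value of miR-5130, 610, was also its lowest in KO, and KO1, at 4802, was its highest. miR-5105 had KO5 as its lowest KO mouse, at 404, and KO1 as its highest, at 4475, the same mice that were lowest and highest for miR-2861.

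miR-5112 was the exception in direction. It followed miR-3960 between mice, with r = 0.89 within WT and 0.79 within KO, but its log2 change was -0.36, with a standard error of 0.544 and an adjusted p of 0.774 from limma, and its WT values ran from 1425 in WT1 to 16838 in WT4. miR-1968, which followed miR-705, had a log2 change of 0.11, with a standard error of 0.356 and an adjusted p of 0.922 from limma. At the unadjusted threshold, which 9.73% of all miRNAs passed upward, the miRNAs named for likeness were higher in KO except miR-1968, miR-1982* and miR-5112. None of the 10 miRNAs named for likeness passed the adjusted threshold (1.08% of all miRNAs passed it upward), and the smallest adjusted p among them by limma was 0.0586, of miR-5130 and miR-3077*. Without KO1 4 of the 10 passed, without KO4 2, and without KO5 or without WT4 1.

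The mature sequences of miR-5126 and miR-5130, both named for likeness, and of miR-2137 are shown for comparison with the members, again from RefSeq on GRCm38.p6 and with the seed in capitals.
miR-5126: gCGGGCGGggccgggggcgggg
miR-5130: cUGGAGCGcgcgggcgaggcaggc
miR-2137: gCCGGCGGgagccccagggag

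Among the 94 tested miRNAs with a sequence matched by exact name, 11 others than the members had at least 50% G, and miR-5126 had the most, 77.3%. Of these 11, 8 had a higher mean log2 intensity in KO and 3 a lower one, with a median log2 change of 0.73 and a range from -0.11 to 1.66. At the unadjusted threshold, which 9.73% of all miRNAs passed upward, 5 of the 11 were higher in KO and 0 were lower. They were miR-5126, miR-1892, miR-2137, miR-5130 and miR-671-5p, the last named after its value was seen. With a mouse left out this count was 5 or 6, a check that was chosen after seeing the data. At the adjusted threshold, which 1.08% of all miRNAs passed upward, 1 of the 11 was called, and 2 without WT4, 3 without KO1 or without KO4, and 0 without WT3 or without KO2.

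That one was miR-2137, at 382 to 848 in WT and 939 to 4300 in KO. Its log2 change was 1.64, with a standard error of 0.327 and an adjusted p of 0.0190 from limma, and all 6 KO mice were above all WT mice; without WT3 or KO2 its adjusted p was 0.0503 or 0.0570. Its deviations were little like those of the members, with r of 0.44 with miR-762, 0.40 with miR-3960, 0.50 with miR-2861 and -0.26 with miR-705. The brightest of the 11, miR-5126, averaged 13030 ± 2053 (SD, n = 6) over WT mice and 22108 ± 5553 (SD, n = 6) over KO mice, and its log2 change was 0.73, with an adjusted p of 0.0908 from limma. miR-1892 changed by 0.94 (adjusted p = 0.127) and miR-5130 by 1.66 (adjusted p = 0.0586), both from limma. miR-770-3p, at 50% G, averaged 418 ± 86.4 (SD, n = 6) over WT mice and 419 ± 145 (SD, n = 6) over KO mice.

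The 80 miRNAs with a matched sequence of under 50% G had 43 higher and 37 lower means, and a median log2 change of 0.03. At the unadjusted threshold 3 of the 80 were higher, miR-678, miR-1895 and miR-1903, and 5 lower, miR-125a-5p, miR-125b-5p, miR-337-3p, miR-434-3p and miR-615-3p, and at the adjusted threshold 1 was called, miR-1903, which was higher. These 8 names were listed after their values were seen. Over all 366 miRNAs tested other than the members, 156 means were higher and 210 lower. Only 25.4% of the miRNAs tested matched a sequence by exact name, mostly because older names do not say which arm of the hairpin is meant, so the counts describe the matched miRNAs alone, and no relation of G content to change was computed over the array. At the unadjusted threshold 5 of the 11 G-rich miRNAs and 3 of these 80 were higher in KO, and in this difference genotype and dye cannot be told apart. The part of base composition in the values of the 4 miRNAs was not tested.

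**Figure D4:**
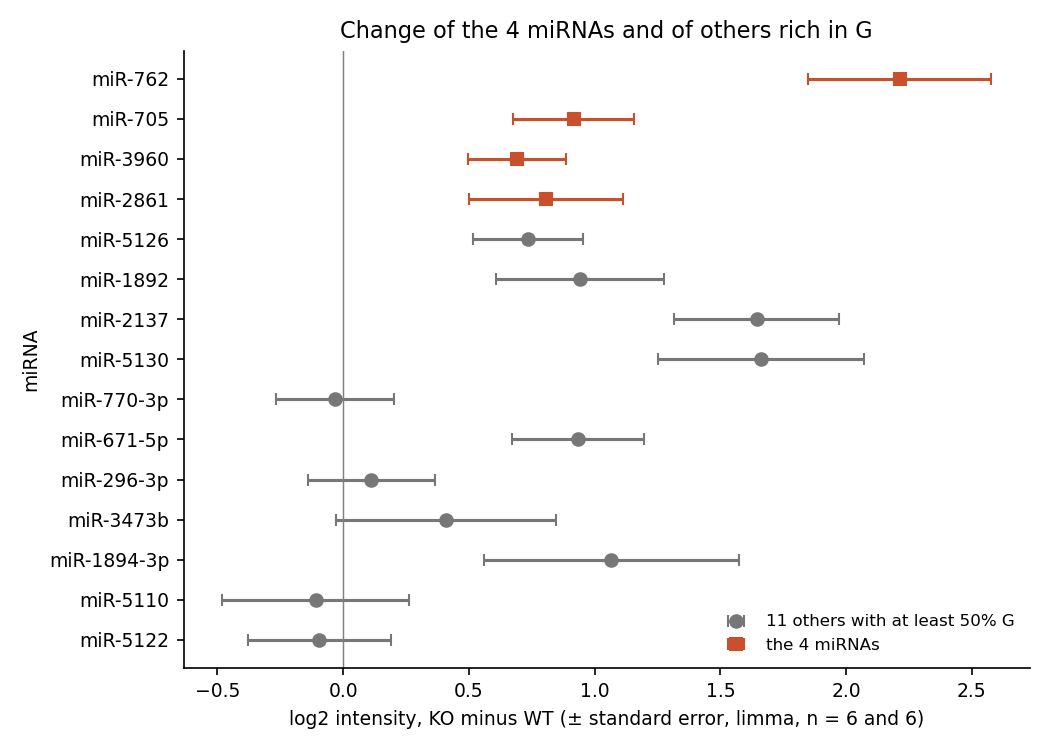
Change in log2 intensity, KO minus WT, with its standard error from limma (n = 6 and 6) for the 4 miRNAs (squares) and the 11 others tested with at least 50% G (circles, from the brightest at the top). The 4 lie between 0.69 and 2.21, and 8 of the 11 others lie above 0.

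miRNAs known to target Runx2, the factor upstream of the miR-3960 and miR-2861 transcript, were mostly dark in this muscle. Of 11 such miRNAs only miR-23a, miR-30c and miR-133a were bright enough to be tested, and the other 8 did not exceed 32 in any mouse. None passed the adjusted threshold by limma and 1 of the 3 passed the unadjusted one, which 9.73% of all miRNAs passed downward: miR-23a was lower in KO, at 2366 ± 848 (SD, n = 6) against 4116 ± 1378 (SD, n = 6) over the WT mice. Its log2 change was -0.80, with a standard error of 0.290 and an adjusted p of 0.132 from limma. miR-133a, a muscle miRNA and the brightest of the 3, averaged 9060 ± 2410 (SD, n = 6) over WT mice and 7147 ± 2194 (SD, n = 6) over KO mice, and its adjusted p was 0.493 from limma.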

How the data were processed

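RNA of 12 samples was profiled by an array service on probes for mouse miRBase version 17. The table that the authors deposited holds 1 normalized intensity per miRNA name and sample, in whole numbers and not on a log scale; the methods state that the data were normalized and name no method. Background correction, repeated spots and the test behind the authors' p-values are not given in the sources used here. Genotype and number came from the sample titles, and all 12 samples were used. Probe intensities carry no counts, so the precision rests on the 6 mice per group, and nothing states that extractions were repeated.

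Values under 1 were set to 1 and log2 was taken. The 370 miRNAs with a mean of at least 32 were fitted with limma 3.58.1 (lmFit, eBayes, R 4.3.3), KO against WT, two-sided, with Benjamini-Hochberg adjustment over all 370 and a threshold of 0.05. The fit was tested on simulated data. Correlations within a genotype used every pairing of 6 mice. The members and lists were chosen with earlier results of these data known. miRNAs given by name are the members, the 3 most alike for each, those with at least 50% G that were called or among the 5 brightest, sharers of a seed, and of the Runx2 list those past the unadjusted threshold and the brightest. Sequences came from RefSeq tables of GRCm38.p6: 94 of the 370 names matched exactly, and miR-1 was read as miR-1a. Same-numbered mice deviated together unevenly (r from -0.45 to 0.59), so the numbers were not taken as pairs.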

Additional observations from a re-analysis of the deposited data

Results flagged for a closer look

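A sample was looked at again where its gap to the nearest other mouse of its group, on the log2 scale, divided by the range of the group, exceeded the critical value of Dixon's test for 6 samples. The 10 groups examined were the 4 miRNAs and the ratio of miR-2861 to miR-3960 in each genotype. Chance flags about 1 in 20 groups, and 1 of the 10 met the limit. It was miR-762 in KO, where KO4, at 2120, lay below the other KO mice by 0.683 of the range. With KO4 left out, miR-762 changed by 2.45 on the log2 scale. KO4 was also the lowest KO mouse for miR-3960, with a gap of 0.456, and KO5 was the lowest for the ratio of miR-2861 to miR-3960, with a gap of 0.535, both under the limit.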

How the results depend on the processing

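The log2 changes of the 4 miRNAs kept their direction in all 22 alternatives each. The members were chosen with this difference known, so nothing is read from its direction. None moved by more than the SD between mice, a limit that leaving out a mouse could not exceed by construction. Over settings other than leaving out a mouse they ran from 2.15 to 2.45 for miR-762, 0.86 to 1.13 for miR-705, 0.64 to 0.75 for miR-3960 and 0.75 to 0.92 for miR-2861. With the replicate number as a block the log2 changes stayed at 2.21, 0.92, 0.69 and 0.81. They could not differ, by construction, because each number has a WT mouse and a KO mouse, so nothing is read from this. The standard errors could change, and those of all 4 were larger. For miR-762 the standard error was 0.396 against 0.365, and for miR-3960 it was 0.231 against 0.194. With the block 4 miRNAs were called in place of 5. Whether mice of the same number are littermates is not stated.

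On linear intensities r of the deviations was 0.348 for miR-762 and miR-705 and -0.0838 for miR-705 and miR-2861, against 0.67 and 0.17 on log2. With a mouse left out r ran from 0.59 to 0.77 and from 0.02 to 0.47 for these pairs. Relations past the unadjusted threshold were 5 of 12, and 3 by Spearman's rho; past the adjusted threshold they were 0, and 5 with median centring and 5 with centring on miRNAs under 50% G.

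The count of G-rich miRNAs called higher, 1, was 0 with no filter and with a limit of 60% G, 2 with a pseudocount of 50, with quantile normalization and with centring on miRNAs under 50% G, 3 with cyclic loess and with a mean of at least 500, and 5 with array weights and at the unadjusted threshold; with a mouse left out it was 0 to 3, lowest without WT3 or KO2. None was called lower in any setting. Over all miRNAs 5 were called, against 1 with no filter, 8 with quantile normalization, 10 with centring on miRNAs under 50% G, 11 with cyclic loess, 14 when 50 was added before log2, 21 with a mean of at least 500, 115 with array weights, and 3 to 49 with a mouse left out (49 without KO1, 11 without WT4, 8 without KO4, 3 without WT3 or KO2). Of the Runx2 list 1 passed without adjustment, and miR-23a and miR-30c passed with array weights (adjusted p = 0.0101 and 0.0435 by limma). Of the 10 miRNAs named for likeness 0 were called, against 2 with a pseudocount of 50, with quantile normalization, with cyclic loess and with centring on miRNAs under 50% G, 5 of the 6 left with a mean of at least 500, and 8 with array weights. miR-1968 changed sign without WT3 or KO3 (range with a mouse left out -0.12 to 0.38), and miR-770-3p with cyclic loess (0.13, also with the block) and without WT1, KO4 or KO5 (range -0.19 to 0.065). With no filter and with a mean of at least 500 the number of miRNAs tested changed by construction. The cause of the other shifts was not tested. The relation of change to G content and its alternatives were not run, because under 80% of the names had a sequence.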
